A study of Homo sapiens with 12 samples.

Results

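The genes examined here encode 10 proteins of mitochondrial fatty acid oxidation, namely CPT1A, SLC25A20, CPT2, ACADVL, ACADM, HADHA, HADHB, ACAA2, ETFA and ETFDH. They were picked as enzymes and carriers of the pathway, with earlier results of these data known. The rule names GENCODE symbols and no measured value, and the genes are 10 of the 60675 gene identifiers counted in each library. RNA-sequencing read counts came from SUDHL6 and SUDHL16, human diffuse large B-cell lymphoma (DLBCL) cell lines, and from a venetoclax-resistant line made from each. Venetoclax (ABT-199) inhibits the anti-apoptotic protein BCL2. The groups are named SUDHL6-parental (CE-7, CE-8 and CE-9), SUDHL6-resistant (CE-10, CE-11 and CE-12), SUDHL16-parental (CE-25, CE-26 and CE-27) and SUDHL16-resistant (CE-28, CE-29 and CE-30), with 3 libraries each. The parental groups had no venetoclax selection, and the resistant lines had been grown for months in rising venetoclax, were considered resistant when they grew at 10 times the original IC50 or more, and were kept in the drug. For experiments, cells of both kinds were put into fresh media, and whether the drug was present when RNA was taken is not stated. Each resistant group is a single derived line, and the labels do not say whether its 3 libraries came from separate cultures, so the p-values measure only the spread between libraries, which may be technical. For SUDHL6 the kit was NEBNext Ultra II and the instrument an Illumina HiSeq. For SUDHL16, RiboZero Plus depletion preceded a stranded total RNA preparation run on a NovaSeq, so levels cannot be compared between the lines.

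The total count per library was 33992784 to 40885665 in SUDHL6-parental, 36212755 to 40298116 in SUDHL6-resistant, 4131927 to 16685929 in SUDHL16-parental and 14335460 to 22068221 in SUDHL16-resistant. The library with the lowest total, the SUDHL16-parental CE-26, stood apart from the other 11 of the 12: 31.9% of its counts lay on identifiers absent from GENCODE 44, against 0.171% to 5.06% in the others, and it had counts on 34938 genes. Fold changes and counts of called genes in SUDHL16 are therefore given with and without it. All 7 of 7 B-cell markers checked, among them MS4A1, CD79A and PAX5, averaged at least 1 CPM (counts scaled to the size of the library) in each group, and their summed level was 2695 to 4370.4 CPM. The summed level of 6 fibroblast and endothelial markers was at most 2.41 CPM in the other groups but 0.0621 to 41.7 CPM in SUDHL16-parental, and that of 6 epithelial markers was at most 2.18 CPM in the others but 0 to 16.2 CPM there. Both of these highest sums were those of CE-26, and rest on at most 29 counts of any 1 such marker. The 6 T-cell markers summed to 3.10 to 3.94 CPM in SUDHL6, to 18.5 to 33.4 CPM in SUDHL16-parental and to 23.3 to 28.5 CPM in SUDHL16-resistant, and the 6 myeloid markers to 10.7 CPM at most. Of the T-cell markers, CD3E was higher in resistant SUDHL16, at 13.1, 13.4 and 10.8 CPM against 1.16, 4.48 and 1.30 CPM in the parental libraries (adjusted p = 0.0455, and 0.00131 without CE-26). It was the 1 of 3 T-cell markers tested there that was higher. The median log2 fold change of the 3 was -0.38, and -0.40 without CE-26. Of the epithelial markers, KRT18 was higher in resistant SUDHL6, at under 1 CPM in each library (adjusted p = 0.0465). The B-cell marker BLK was called higher in resistant SUDHL16 (log2 fold change 1.98, and 1.87 without CE-26). Without CE-26 the endothelial marker PECAM1 was called higher there too, at 0.753 to 1.66 CPM in the resistant libraries. The part of these markers in the results below was not tested.

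Fatty acid oxidation shortens fatty acids inside mitochondria and passes their electrons to the respiratory chain. A long-chain acyl group is loaded onto carnitine by CPT1, carried across the inner membrane by SLC25A20 and moved back to coenzyme A by CPT2. Acyl-CoA dehydrogenases such as ACADVL and ACADM then take the first electrons, the trifunctional protein of HADHA and HADHB and the thiolase ACAA2 complete the cycle, and the electron transfer flavoprotein with ETFDH hands electrons to ubiquinone. B cells and their lymphomas can draw energy from this route as well as from glucose and glutamine.

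Sequence upstream of 4 of the genes is shown because these windows precede the genes on which the results turn: the gene that fell in SUDHL6 (CPT1A), the gene that rose in SUDHL16 (ACADVL), a gene whose call in SUDHL16 changes when CE-26 is left out (ETFA), and the stretch shared by the divergent pair HADHA and HADHB. Each window is the 250 bases before the canonical GENCODE 44 start, read 5′ to 3′ on the strand of the gene from GRCh38. Capitals mark the GC box (GGGCGG, either strand) and the CCAAT box (CCAAT, either strand).
CPT1A, minus strand, chr11:68841917-68842166: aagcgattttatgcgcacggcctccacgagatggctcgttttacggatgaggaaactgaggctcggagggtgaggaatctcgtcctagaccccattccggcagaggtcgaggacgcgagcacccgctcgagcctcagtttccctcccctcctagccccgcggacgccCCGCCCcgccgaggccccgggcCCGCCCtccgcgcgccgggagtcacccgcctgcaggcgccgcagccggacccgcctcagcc
ACADVL, plus strand, chr17:7219688-7219937: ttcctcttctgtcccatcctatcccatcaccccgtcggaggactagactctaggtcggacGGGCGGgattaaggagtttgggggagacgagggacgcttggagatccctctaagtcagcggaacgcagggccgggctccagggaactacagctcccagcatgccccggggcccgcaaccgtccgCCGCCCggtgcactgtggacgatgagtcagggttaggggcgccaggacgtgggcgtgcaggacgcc
HADHB, plus strand, chr2:26244689-26244938: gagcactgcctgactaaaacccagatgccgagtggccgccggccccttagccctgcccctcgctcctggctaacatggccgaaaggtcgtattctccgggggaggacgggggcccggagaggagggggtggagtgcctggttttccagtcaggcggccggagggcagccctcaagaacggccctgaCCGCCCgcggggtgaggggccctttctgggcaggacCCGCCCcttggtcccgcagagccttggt
ETFA, minus strand, chr15:76311470-76311719: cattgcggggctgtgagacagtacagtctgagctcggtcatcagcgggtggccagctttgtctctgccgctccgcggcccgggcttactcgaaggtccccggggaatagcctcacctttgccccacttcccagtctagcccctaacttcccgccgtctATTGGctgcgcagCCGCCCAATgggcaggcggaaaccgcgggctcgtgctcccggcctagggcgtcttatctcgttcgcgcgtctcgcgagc

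The windows were 65.6% to 70.4% G and C. The GC box was found 2 times before CPT1A, 2 times before ACADVL, 2 times in the HADHB window and 1 time before ETFA. The CCAAT box was found only before ETFA, where 1 of its 2 copies overlaps the GC box. None of the 4 windows held the E-box CACGTG, the nuclear receptor motif AGGTCA, the motif AAGGTCA that contains it or the TATA box TATAAA, each searched on both strands. The RefSeq start of CPT1A lies 2361 bases from the GENCODE start used here, and that of ACADVL lies 2813 bases from it, while those of HADHB and ETFA are the same base. The background is the 250 bases before 27305 RefSeq starts (build GRCh38.p14), with a median of 58.0% G and C, of which 42.3% held the GC box, 33.0% the CCAAT box, 6.49% CACGTG, 12.1% AGGTCA, 3.46% AAGGTCA and 11.1% TATAAA. On these RefSeq windows CPT1A had 44.4% G and C and ACADVL 49.6%, both with 0 copies of the GC box, and ACADVL held TATAAA on the opposite strand, so for both genes the letters depend on which start is taken. The ACADVL window also holds the start of the opposite-strand gene DLG4. HADHA and HADHB start 306 bases apart and point away from each other, so the HADHB window is most of the stretch between them.

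In SUDHL6, 1 of the 10 genes passed the limits of an adjusted p under 0.05 and a 1.5-fold change. It was CPT1A, which was lower in the resistant line, where 8.96% of all 16662 genes tested passed, 4.31% of them higher and 4.65% lower. An adjusted p under 0.05 without the fold limit was reached by 6 of the 10 genes, against 37.3% of all genes tested. The changes of these 6 ran in both directions: CPT1A, ACAA2 and ETFA were lower in the resistant line, and ACADM, HADHA and HADHB higher. The median log2 fold change of the 10 was 0.02, and that of all genes tested was -4.34e-05. In SUDHL16, 1 of 10 genes passed both limits, ACADVL, which was higher in the resistant line, where 5.30% of 15708 genes passed, 3.20% higher and 2.10% lower. The median of the 10 was 0.15, against -0.02 for all genes. Without CE-26, 2 of 10 passed, ACADVL and ETFA, both higher, where 10.0% of 16280 genes passed, 6.73% higher and 3.32% lower.

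**Figure D1:**
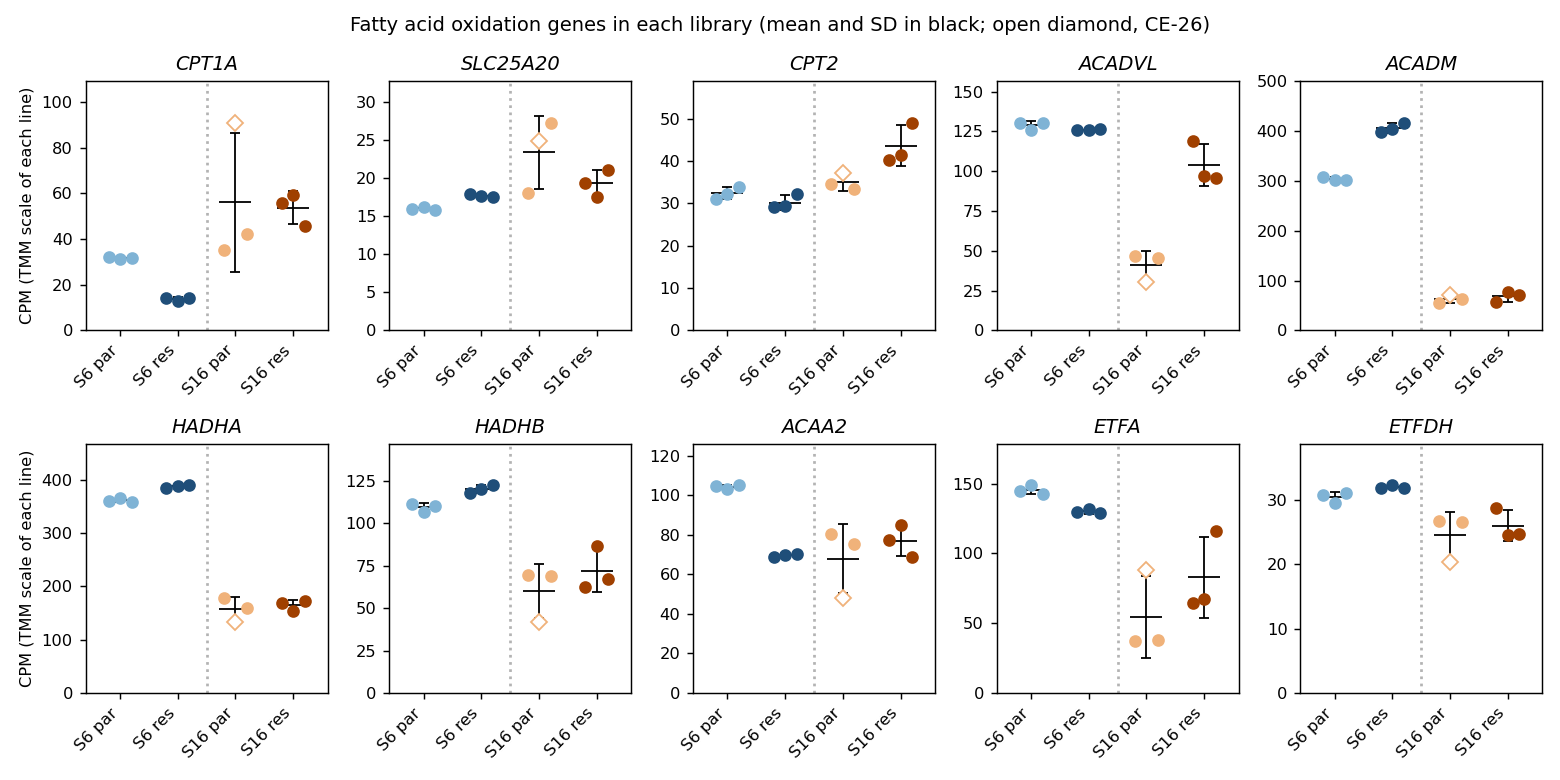
Level of each of the 10 genes in every library, in CPM on the scale of each line's own fit (y axis from 0), by group on the x axis (S6, SUDHL6; S16, SUDHL16; par, parental; res, resistant). Points are libraries, black marks the mean and SD of 3 libraries, and the open diamond is CE-26. CPT1A sits at 12.9 to 14.2 CPM in resistant SUDHL6 against 31.2 to 32.2 CPM in parental, and ACADVL at 96.0 to 119 CPM in resistant SUDHL16 against 30.7 to 46.5 CPM in parental.

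CPT1A (ENSG00000110090, chromosome 11, 68754620 to 68844410, minus strand, 19 exons in the canonical transcript) encodes the liver-type carnitine palmitoyltransferase of the outer membrane, the step at which malonyl-CoA controls entry. Its level was 32.2, 31.2 and 31.8 CPM in CE-7, CE-8 and CE-9 and 14.1, 12.9 and 14.2 CPM in CE-10, CE-11 and CE-12. All 3 resistant libraries were below every parental library. The mean was 31.7 CPM ± 0.459 (SD, n = 3) in parental and 13.7 CPM ± 0.735 in resistant cells, and CPT1A fell to 0.432 of the parental level (log2 fold change -1.21, SE 0.06, adjusted p = 8.65e-09). These are bulk samples, in which fewer cells with a transcript and less of it per cell cannot be told apart. In a fit of all 12 libraries together, where both lines share a spread, the change was the same (-1.21) with an adjusted p of 0.0573.

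In SUDHL16, CPT1A was at 35.0, 90.9 and 42.3 CPM in CE-25, CE-26 and CE-27 and at 55.9, 59.3 and 45.6 CPM in CE-28, CE-29 and CE-30. The resistant libraries lay between CE-26 and the other parental libraries. The log2 fold change was -0.05 (95% interval -0.88 to 0.78, adjusted p = 0.961) with CE-26 and 0.48 (-0.03 to 0.998, adjusted p = 0.245) without it, and its sign also turned under other alternatives that kept CE-26, so no direction is read from it. CE-26 had 264 counts of CPT1A, the fewest of the 12 libraries.

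CPT1A belongs to a small family with CPT1B, the muscle-type enzyme, and CPT1C, a relative found mainly in brain. CPT1B was at 14.7, 30.6 and 22.2 CPM in parental and 20.6, 19.9 and 27.6 CPM in resistant SUDHL6, with overlapping groups (log2 fold change 0.01, SE 0.20, adjusted p = 0.970). Its counts are uncertain, because the annotation also holds a read-through gene, CHKB-CPT1B, over the same locus. CPT1C had 11 to 52 counts in the SUDHL6 libraries (log2 fold change -0.62, adjusted p = 0.330) and 0 to 13 in the SUDHL16 libraries, where it was not tested. CPT1A made up 67.9%, 50.1% and 57.5% of the counts of the CPT1 genes in CE-7, CE-8 and CE-9 and 39.5%, 39.0% and 33.6% in CE-10, CE-11 and CE-12. The highest resistant share was below the lowest parental share in this line. In SUDHL16 the share was 71.8%, 88.3% and 64.1% in the parental libraries and 87.4%, 88.6% and 80.8% in the resistant ones, and CE-26 overlapped the resistant libraries. These shares are not corrected for gene length, so they do not rank the genes. Per kilobase of canonical transcript, mean CPT1B was above mean CPT1A in SUDHL6, at 8.63 against 6.06 CPM per kb in parental and 8.72 against 2.62 in resistant cells. The parental libraries overlapped, at 5.63 to 11.7 for CPT1B and 5.97 to 6.14 for CPT1A, and the resistant ones did not. CPT1A was above CPT1B in resistant SUDHL16, at 10.2 against 3.36 CPM per kb, with no overlap of the libraries. In parental SUDHL16 the means were 10.7 and 5.74, but the libraries overlapped, at 6.68 to 17.4 for CPT1A and 2.91 to 9.11 for CPT1B. The highest CPT1A and the lowest CPT1B there were those of CE-26. Without CE-26, mean CPT1A was 7.38, so no order of these 2 genes is read in parental SUDHL16. CPT1B in SUDHL16 had a log2 fold change of -0.79 (adjusted p = 0.382), and -1.08 without CE-26 (adjusted p = 0.0885).

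**Figure D2:**
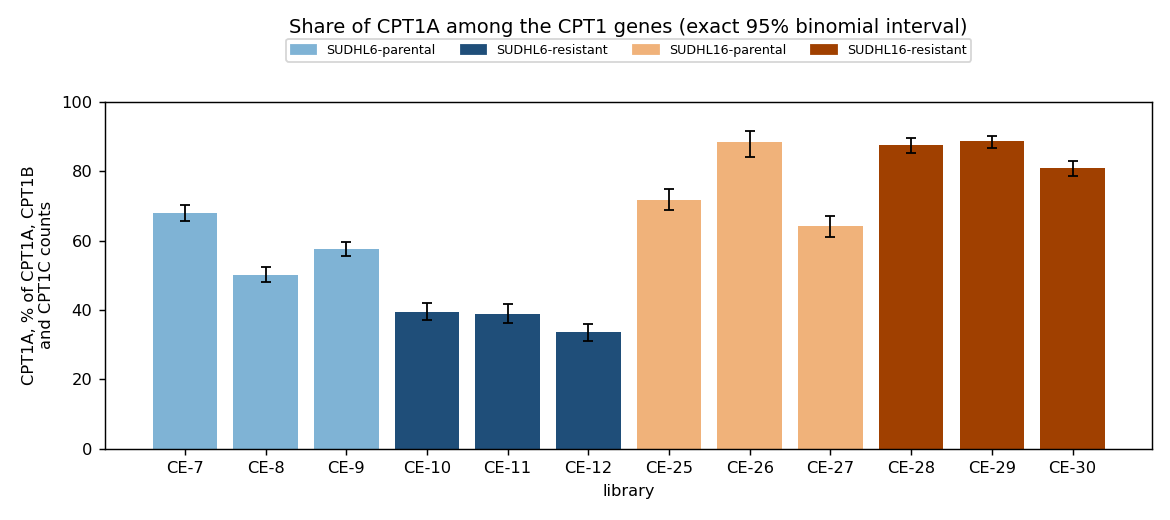
Share of CPT1A among the counts of CPT1A, CPT1B and CPT1C (y axis, percent) in each library (x axis). Bars are coloured by group and error bars are exact 95% binomial intervals, which cover counting error only. Counts are not corrected for gene length. The share is 33.6% to 39.5% in resistant SUDHL6 against 50.1% to 67.9% in parental, and 80.8% to 88.6% in resistant SUDHL16 against 64.1% to 88.3% in parental.

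SLC25A20 (ENSG00000178537, chromosome 3, 48856926 to 48898904, minus strand, 9 exons) is the carnitine-acylcarnitine carrier of the inner membrane. It was at 15.98, 16.2 and 15.8 CPM in parental and 17.8, 17.6 and 17.5 CPM in resistant SUDHL6. The groups did not overlap, but the log2 fold change was 0.14 (95% interval 0.01 to 0.27) and the adjusted p 0.0768. In SUDHL16 it was at 18.02, 24.8 and 27.2 CPM in parental and 19.4, 17.5 and 20.97 CPM in resistant libraries, overlapping, with a log2 fold change of -0.27 (-0.89 to 0.34, adjusted p = 0.654) and -0.22 without CE-26.

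CPT2 (ENSG00000157184, chromosome 1, 53196792 to 53214197, plus strand, 5 exons) is the inner-membrane transferase that returns the acyl group to coenzyme A. Its level was 31.1, 32.2 and 33.8 CPM in parental and 29.1, 29.2 and 32.2 CPM in resistant SUDHL6, with overlapping groups (log2 fold change -0.10, 95% interval -0.22 to 0.02, adjusted p = 0.168). It was at 34.6, 37.2 and 33.3 CPM in parental and 40.1, 41.5 and 49.0 CPM in resistant SUDHL16. All 3 resistant libraries were above the parental ones there, yet the log2 fold change of 0.32 (-0.16 to 0.80) had an adjusted p of 0.471, and without CE-26 it was 0.37 with an adjusted p of 0.353. Of the 3 steps of the carnitine shuttle, a call was thus made for CPT1A in SUDHL6 alone, under the fit of each line by itself.

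**Figure D3:**
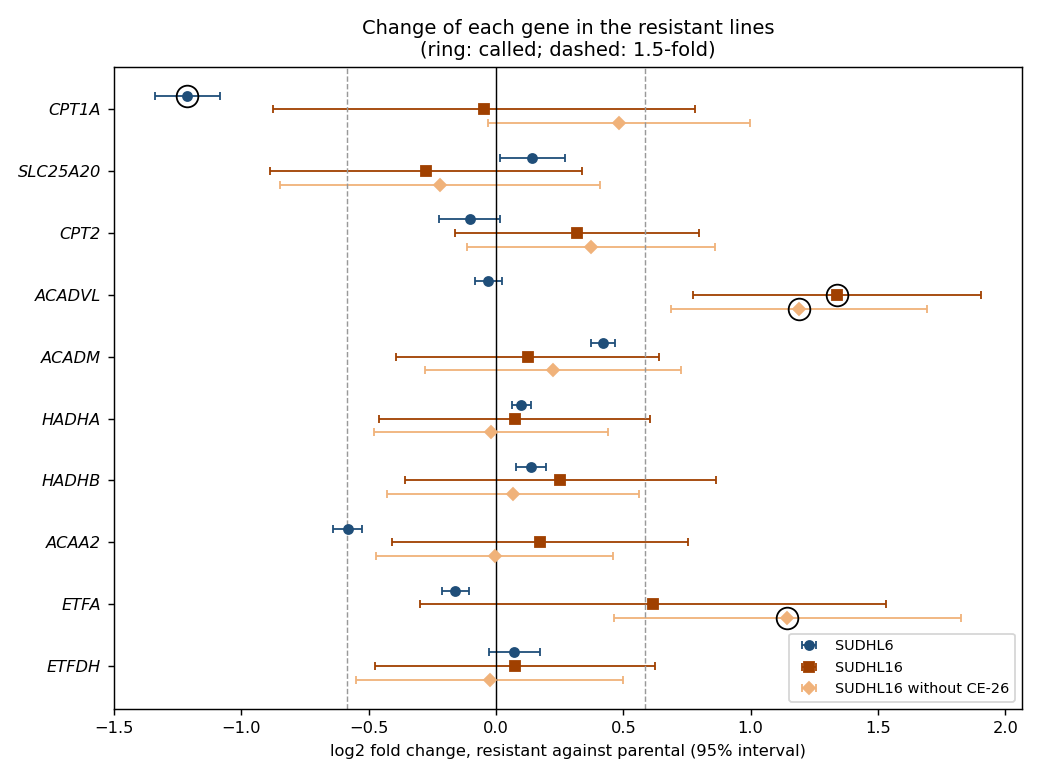
Log2 fold change of each gene, resistant against parental (x axis), with 95% intervals, for SUDHL6, SUDHL16 and SUDHL16 without CE-26 (genes on the y axis). Rings mark genes that passed both limits and dashed lines 1.5-fold. CPT1A at -1.21 is the only ring in SUDHL6, ACADVL is ringed in SUDHL16 at 1.34 with CE-26 and 1.19 without it, and ETFA at 1.14 only without CE-26.

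ACADVL (ENSG00000072778, chromosome 17, 7217125 to 7225266, plus strand, 20 exons) is the very-long-chain acyl-CoA dehydrogenase of the inner membrane. It was at 46.5, 30.7 and 45.5 CPM in CE-25, CE-26 and CE-27 and at 119, 96.9 and 96.0 CPM in CE-28, CE-29 and CE-30. Every resistant library was above every parental one, and the lowest parental value was that of CE-26. The mean was 40.9 CPM ± 8.88 (SD, n = 3) in parental and 104 CPM ± 13.1 in resistant SUDHL16, and ACADVL rose 2.53-fold (log2 fold change 1.34, SE 0.25, adjusted p = 0.0197). Without CE-26 it rose 2.28-fold (1.19, SE 0.22, adjusted p = 0.0122). The call was lost when CE-25, CE-27, CE-28, CE-29 or CE-30 was left out in turn, or with library totals as the scale, and the adjusted p then reached 0.0957 at most, while the size of the change was 1.25 to 1.45 on the log2 scale.

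In SUDHL6, ACADVL was at 130, 126 and 131 CPM in parental and 126, 126 and 127 CPM in resistant libraries. The groups overlapped, with a log2 fold change of -0.03 (95% interval -0.08 to 0.02, adjusted p = 0.354). Whether the change differed by line was tested on all 12 libraries in a joint model. For each gene both lines share a spread in it, although the biological coefficient of variation was 0.468 in SUDHL16 and 0.0516 in SUDHL6. It can thus understate the spread in SUDHL16 and give adjusted p-values that are too small. The change of ACADVL in SUDHL16 had an adjusted p of 0.000687 in the single edgeR fit of all 12 libraries, against 0.0197 when SUDHL16 was fitted alone. ACADVL was the 1 of 10 genes whose change differed between the lines past both limits (1.38 higher in SUDHL16 on the log2 scale, SE 0.26, adjusted p = 0.00794), where 7.16% of 19621 genes did. Without CE-26, 13.4% of 20959 genes passed, and so did 3 of the 10: ACADVL (1.17, adjusted p = 0.000234), CPT1A (1.65, adjusted p = 0.00016) and ETFA (1.27, adjusted p = 0.0148). With CE-26 the difference was 1.25 for CPT1A (adjusted p = 0.0559) and 0.87 for ETFA (adjusted p = 0.248). ACADVL overlaps DLG4 by 2717 bases on the opposite strand, all of them before the canonical start of ACADVL at 7219938. Since the strand setting of the counting is not known, reads there could have been shared or dropped, but the canonical transcript lies outside the overlap. DLG4 had 8 to 554 counts per library against 89 to 5313 for ACADVL.

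ACADM (ENSG00000117054, chromosome 1, 75724431 to 75787575, plus strand, 12 exons) is the medium-chain acyl-CoA dehydrogenase. Its level was 308, 302 and 301 CPM in parental and 398, 403 and 417 CPM in resistant SUDHL6. The groups were well apart, and the level was 1.34-fold higher in resistant cells (log2 fold change 0.42, SE 0.02, adjusted p = 1.34e-08), which is under the 1.5-fold limit. In SUDHL16 it was at 54.9, 70.6 and 62.4 CPM in parental and 56.3, 77.7 and 70.2 CPM in resistant libraries, with overlapping groups (log2 fold change 0.12, 95% interval -0.39 to 0.64, adjusted p = 0.832, and 0.22 without CE-26, adjusted p = 0.623). Its 3′ end overlaps RABGGTB by 1379 bases on the same strand, so reads there could belong to either gene.

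HADHA (ENSG00000084754, chromosome 2, 26190635 to 26244672, minus strand, 20 exons) and HADHB (ENSG00000138029, chromosome 2, 26243170 to 26290465, plus strand, 16 exons) encode the alpha and beta subunits of the trifunctional protein, and their annotated 5′ ends overlap by 1503 bases. HADHA was at 360, 366 and 359 CPM in parental and 385, 388 and 390 CPM in resistant SUDHL6. HADHB was at 111, 106 and 110 CPM in parental and 118, 120 and 122 CPM in resistant SUDHL6. For both genes the resistant libraries were all above the parental ones, by 1.07-fold for HADHA (adjusted p = 0.00065) and 1.10-fold for HADHB (adjusted p = 0.0017), under the 1.5-fold limit. The ratio of HADHA to HADHB counts, which depends on no scaling, had a geometric mean of 3.31 in parental and 3.22 in resistant SUDHL6 (exact permutation test, two-sided, p = 0.4, n = 3 against 3, for which 0.1 is the smallest p that can be reached).

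In SUDHL16, HADHA was at 178, 134 and 160 CPM in parental and 170, 155 and 172 CPM in resistant libraries. HADHB was at 69.4, 42.0 and 69.2 CPM in parental and 62.6, 86.4 and 67.4 CPM in resistant libraries. Both genes overlapped between the groups, with log2 fold changes of 0.07 (95% interval -0.46 to 0.60) and 0.25 (-0.36 to 0.87), and of -0.02 and 0.07 without CE-26. Their ratio was 2.66 in parental and 2.32 in resistant SUDHL16 (exact permutation p = 0.5), and 2.44 against 2.32 without CE-26 (exact permutation p = 1).

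ACAA2 (ENSG00000167315, chromosome 18, 49782164 to 49813953, minus strand, 10 exons) is the mitochondrial 3-ketoacyl-CoA thiolase, which releases acetyl-CoA. It was at 104, 103 and 105 CPM in parental and 68.5, 69.9 and 70.4 CPM in resistant SUDHL6. The groups were far apart relative to their spread, and the resistant level was 0.668 of the parental one (log2 fold change -0.58, SE 0.03, adjusted p = 3.66e-09), just short of the 1.5-fold limit. It passed that limit when CE-8, CE-11 or CE-12 was left out, with log2 fold changes of ACAA2 down to -0.59. In those fits 2 of the 10 genes were called, where 8.25% to 8.45% of all genes passed. In SUDHL16 it was at 80.5, 48.2 and 75.2 CPM in parental and 77.2, 84.8 and 69.0 CPM in resistant libraries, overlapping (log2 fold change 0.17, 95% interval -0.41 to 0.76, and -0.01 without CE-26).

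ETFA (ENSG00000140374, chromosome 15, 76188555 to 76311730, minus strand, 12 exons) is the alpha subunit of the electron transfer flavoprotein. Its level was 37.5, 88.5 and 37.9 CPM in CE-25, CE-26 and CE-27 and 64.8, 67.3 and 116 CPM in CE-28, CE-29 and CE-30. All 3 resistant libraries were above CE-25 and CE-27, and 1 of them was above CE-26. With CE-26 the log2 fold change was 0.62 (95% interval -0.30 to 1.53, adjusted p = 0.464), and without it ETFA rose 2.21-fold (1.14, SE 0.30, adjusted p = 0.0471). With CE-26 kept, voom quality weights also gave a call (0.96, adjusted p = 0.0171), and without CE-30 the log2 fold change was 0.31 (adjusted p = 0.820). In SUDHL6 it was at 145, 149 and 143 CPM in parental and 130, 132 and 129 CPM in resistant libraries, below the parental range in each, at 0.895 of the parental level (log2 fold change -0.16, adjusted p = 0.000258).

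ETFB, the beta subunit and partner of ETFA, is not among the 10. It was at 55.6, 54.0 and 58.9 CPM in parental and 58.7, 56.9 and 59.4 CPM in resistant SUDHL6, and the log2 fold change was 0.05 (adjusted p = 0.293). In SUDHL16 it was at 14.0, 43.7 and 16.1 CPM in parental and 17.8, 9.83 and 35.2 CPM in resistant libraries (log2 fold change -0.20, adjusted p = 0.897, and 0.49 without CE-26, adjusted p = 0.629). The ratio of ETFA to ETFB counts was 2.59 in parental and 2.23 in resistant SUDHL6, and 2.34 in parental and 4.36 in resistant SUDHL16, with no overlap of the libraries in either line, so that each exact permutation test gave p = 0.1, the smallest p possible. Without CE-26 the parental ratio in SUDHL16 was 2.51 (exact permutation p = 0.2, the smallest for 3 against 2). ETFDH (ENSG00000171503, chromosome 4, 158671968 to 158710742, plus strand, 13 exons), the ubiquinone oxidoreductase that takes the electrons over, was at 30.7, 29.6 and 31.1 CPM in parental and 31.9, 32.3 and 31.97 CPM in resistant SUDHL6 (log2 fold change 0.07, 95% interval -0.03 to 0.17, adjusted p = 0.243). The resistant libraries lay just above the parental ones. In SUDHL16 it was at 26.8, 20.3 and 26.6 CPM in parental and 28.8, 24.5 and 24.7 CPM in resistant libraries, overlapping (0.07, -0.48 to 0.62, and -0.03 without CE-26).

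Compared per kilobase of canonical transcript, the genes kept a wide range of levels. In parental SUDHL6, ACADM was highest at 134 CPM per kb ± 1.71 (SD, n = 3), followed by HADHA at 123, ETFA at 63.6, ACADVL at 59.1, HADHB at 54.8, ACAA2 at 35.6, CPT2 at 11.99, ETFDH at 9.79, SLC25A20 at 8.99 and CPT1A at 6.06 CPM per kb, and no neighbours in this order had overlapping libraries. The carnitine shuttle genes were thus among the 4 lowest, with ETFDH. In resistant SUDHL6, ACADM was at 180 CPM per kb and CPT1A at 2.62, the same ends of the order, and only ACADVL (57.8) and ETFA (56.9) overlapped as neighbours. In parental SUDHL16 HADHA was highest at 53.5 CPM per kb and ETFDH lowest at 7.89, and from HADHB (30.2) down each gene overlapped the next. Without CE-26, CPT1A was lowest at 7.38 CPM per kb, just below ETFDH at 8.57, ETFA went from 23.9 to 16.5, and of the neighbours only ACAA2 with ACADM and SLC25A20 with CPT2 overlapped. In resistant SUDHL16, ACADVL was at 47.6 CPM per kb and came next after HADHA at 56.3, and their libraries overlapped.

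Position on the chromosome is not part of the rule that chose the genes, which were picked with earlier results of these data known. Among protein-coding genes of at least 5 CPM starting within 5 Mb of CPT1A, 80 of 135 were higher in resistant SUDHL6 and their median log2 fold change was 0.04, and 2 of them had a change below that of CPT1A. Around ACAA2 on chromosome 18, 21 of 22 were lower in resistant SUDHL6 and their median was -0.33, with 4 below ACAA2 at -0.58. The median of all such protein-coding genes in SUDHL6 was -0.01. Around HADHA and HADHB, 41 of 50 were higher with a median of 0.15, and around ACADM 0 of the 11 had a log2 fold change above that of ACADM, their median being 0.09.

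In SUDHL16, 94 of the 98 genes within 5 Mb of ACADVL on chromosome 17 were higher in the resistant line, the median being 0.97 (log2), and 96 of 98 with a median of 0.91 without CE-26. The change of ACADVL was 1.34, and 20 of the 98 were above it. Around ETFA on chromosome 15, 56 of 57 were higher with a median of 1.004, and without CE-26 all 57 of 57 with a median of 1.02. The change of ETFA was 0.62, with 50 of the 57 above it, and 1.14 without CE-26, with 23 above it. The median of all such genes in SUDHL16 was 0.07, and 0.04 without CE-26. In SUDHL6 the medians around ACADVL and ETFA were 0.02 and -0.04. DNA copy number was not measured, so its part in these regional values was not tested.

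**Figure D4:**
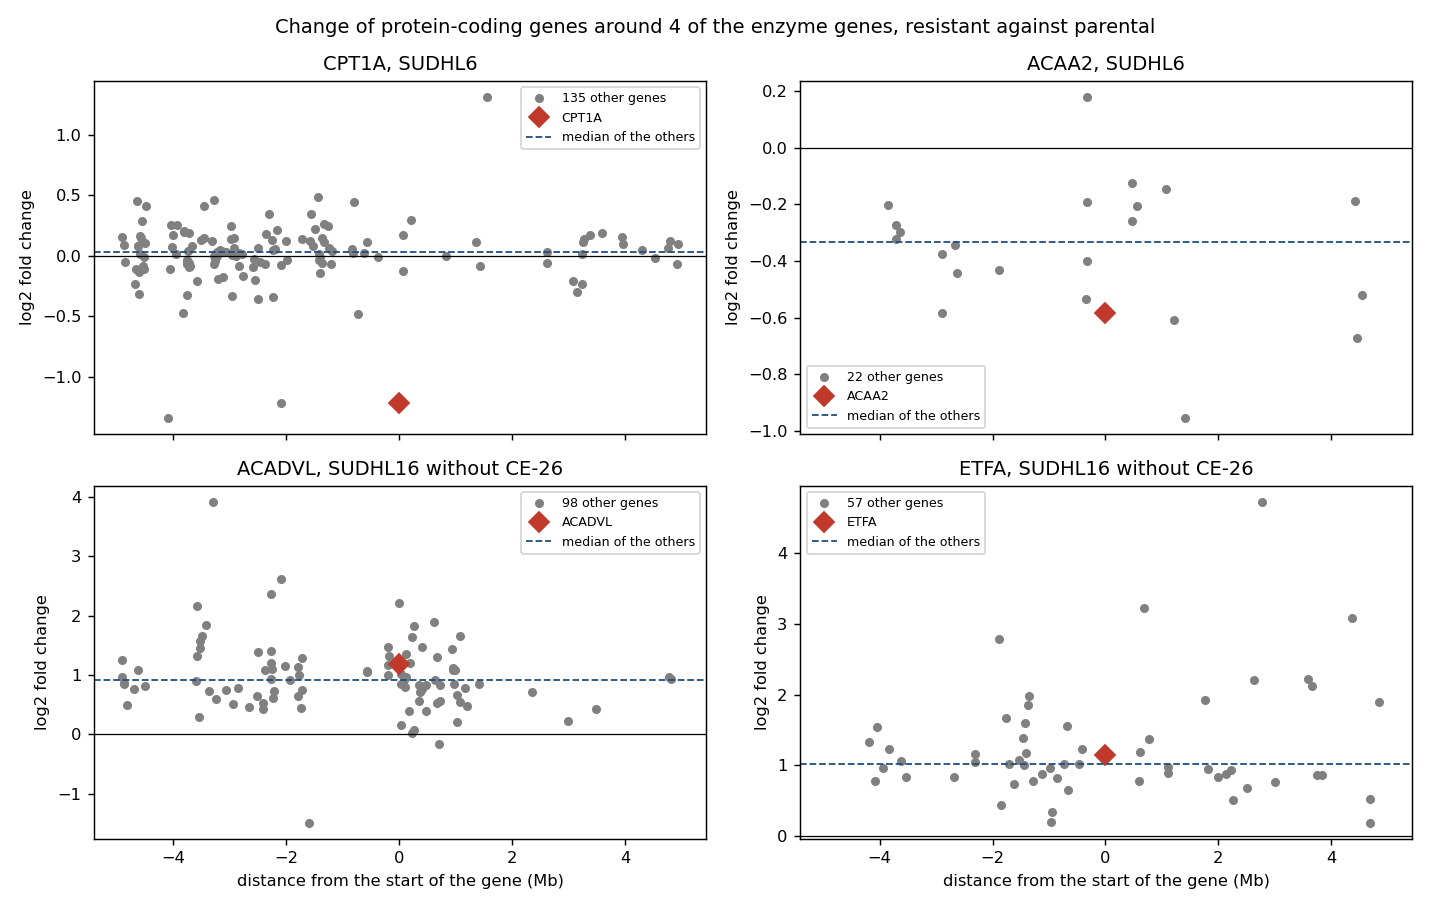
Log2 fold change (y axis) of the other protein-coding genes of at least 5 CPM against their distance in Mb from CPT1A and ACAA2 in SUDHL6 and from ACADVL and ETFA in SUDHL16 without CE-26 (x axis). The diamond is the named gene and the dashed line the median of the others. CPT1A lies far below the median of its neighbours (0.04), while ACAA2, ACADVL and ETFA lie in stretches with medians of -0.33, 0.91 and 1.02.

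The genes with the nearest profile were sought over the 12 libraries among 8860 protein-coding genes, as the root mean square difference of log2 CPM centred on each line. For CPT1A they were AMN1 on chromosome 12 (0.240) and CYB5A on chromosome 18 (0.250). Their log2 fold changes in SUDHL6 were -0.86 and -0.61, both smaller in size than that of CPT1A (-1.21). For ACADVL they were CSK on chromosome 15 (0.0721) and UBE2O on chromosome 17 (0.0747), with log2 fold changes of 1.29 and 1.35 in SUDHL16 and 0.03 and -0.07 in SUDHL6.

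A further 71 genes of the pathway in 7 lists were examined beside the 10, namely uptake and activation, carnitine handling, other mitochondrial enzymes, peroxisomal oxidation, regulators, PPAR target genes and lipid release. In SUDHL6, 57 were tested and 4 passed both limits, 4 higher and 0 lower, the median change being 0.03 (log2). Of all genes tested 8.96% passed, so this count is near the background. MGLL, the monoacylglycerol lipase, rose 2.96-fold from 8.34 to 9.38 CPM in parental to 26.1 to 27.2 CPM in resistant libraries (adjusted p = 2.37e-09). ABCD2, a peroxisomal acyl-CoA transporter, rose 2.93-fold from 1.12 to 1.43 CPM to 3.41 to 3.88 CPM (adjusted p = 6.39e-06). Of 13 other mitochondrial enzymes tested, 2 rose, the short-chain dehydrogenase ACADS by 1.74-fold (adjusted p = 0.00123) and ACAD11 by 1.71-fold (adjusted p = 1.59e-05).

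The enzymes that follow the dehydrogenases for shorter chains were not called in SUDHL6. ECHS1, the short-chain enoyl-CoA hydratase, was at 56.9 to 60.7 CPM in parental and 56.3 to 59.0 CPM in resistant libraries (log2 fold change -0.03, adjusted p = 0.562). HADH, the hydroxyacyl-CoA dehydrogenase, was at 75.5 to 78.4 CPM in parental and 67.7 to 73.0 CPM in resistant libraries (-0.13, adjusted p = 0.00684, under the fold limit). None of 11 genes of uptake and activation, 5 of carnitine handling, 8 regulators and 3 PPAR targets tested passed both limits in SUDHL6.

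In SUDHL16, 54 of the 71 were tested and 3 passed, 2 higher and 1 lower, with a median of 0.11, where 5.30% of all genes passed. ACSL1, a long-chain acyl-CoA synthetase that activates fatty acids, rose 5.32-fold, from 9.70, 12.1 and 9.75 CPM in parental to 39.6, 55.2 and 70.9 CPM in resistant libraries (adjusted p = 0.00287). SLC27A1, a fatty acid transport protein, fell to 0.282 of the parental level, from 13.01, 19.97 and 20.98 CPM to 6.36, 3.95 and 4.85 CPM (adjusted p = 0.0276). PPARD, a nuclear receptor for fatty acids, rose 3.95-fold, from 14.7, 7.58 and 13.8 CPM to 53.8, 42.8 and 49.1 CPM (adjusted p = 0.0073). All 3 passed both limits without CE-26 too, and 6 genes then passed, adding ACSL5 and RXRA, which were higher, and ABCD3, which was lower, where 10.0% of all genes passed. ACSL1 was called whichever library was left out. The call of SLC27A1 was lost without CE-27, CE-28, CE-29 or CE-30, and that of PPARD without CE-28. ECHS1, HADH and ACADS were not called in SUDHL16 (log2 fold changes 0.62, 0.20 and 0.87, adjusted p of 0.253, 0.822 and 0.368), and without CE-26 the changes were 0.44, -0.08 and 1.31 (adjusted p of 0.290, 0.893 and 0.101).

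**Figure D5:**
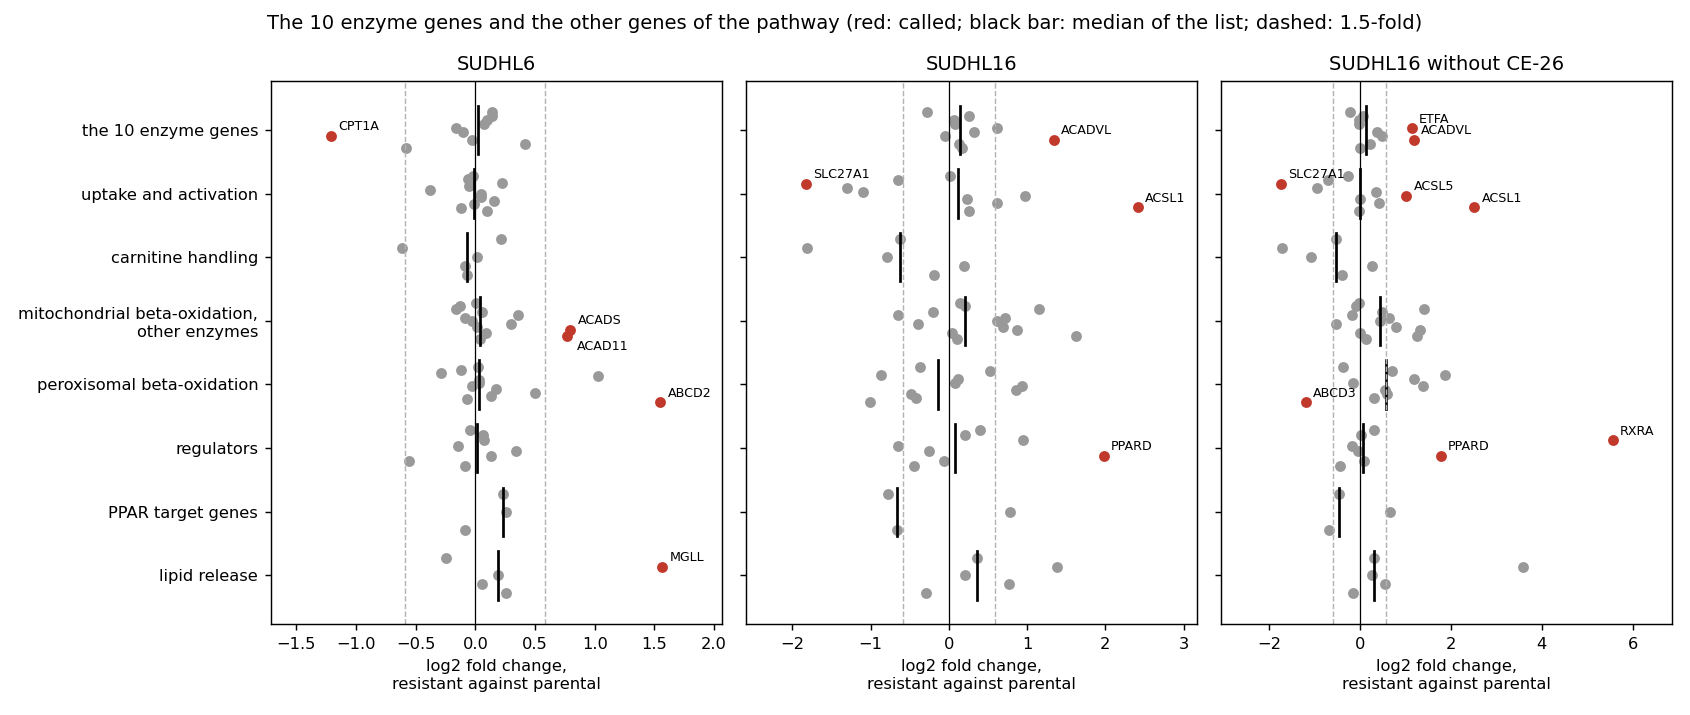
Log2 fold change, resistant against parental (x axis), of the 10 enzyme genes and of the tested genes of the 7 other lists (y axis), in SUDHL6, SUDHL16 and SUDHL16 without CE-26. Red points passed both limits and are named, black bars are medians of the lists and dashed lines mark 1.5-fold. In SUDHL6 CPT1A is the called gene of the 10 and 4 others are called, and in SUDHL16 it is ACADVL with 3 others.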

How the data were processed

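The authors trimmed reads with Trim Galore, aligned them to GRCh38 with HISAT2 and used StringTie, and they deposited for each of the 12 libraries whole-number read counts per gene, without normalization. The counting tool, its annotation and its strand setting are not given in the sources used here. Of the 60675 identifiers, 56558 were found in GENCODE 44, which gave symbols and positions, and 4117 were kept without a symbol.

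Groups were taken from the source names in the labels, which give no replicate numbers, so no pairing was used. No pair of libraries had identical counts. From the counts, each line was fitted alone in edgeR 4.0.16 (R 4.3.3) with filterByExpr, TMM scaling and the two-sided quasi-likelihood test, and a gene was called when its p, adjusted by Benjamini-Hochberg over all genes tested, was under 0.05 and it changed by 1.5-fold or more. CPM were put on the TMM scale of each line. Differences between lines were tested as the interaction term of a joint fit to the 12 libraries, in which both lines share a spread for each gene. Ratios of counts were compared by exact two-sided permutation tests, and shares have exact (Clopper-Pearson) 95% intervals that cover counting error only. Alternatives were DESeq2 1.42.0, upper-quartile scaling, library totals, no filter, a single fit of all 12 libraries, voom quality weights in limma 3.58.1, protein-coding genes only, and each library left out. The code was tested on simulated data.

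The 10 genes and the pathway and marker lists were chosen with earlier results of these data known, and 2 genes of those lists are not reported here or counted. All 10 are named. Of the other lists, ETFB, HADH, ECHS1, ACADS, CPT1B and CPT1C and the called genes of each line are named, with the 2 genes of the nearest profile for each called gene of the 10. ACSL5, RXRA and ABCD3 were named after their values were seen. Profiles used a pseudocount of 0.1 CPM. Python (3.11.15), numpy (2.4.6), pandas (2.3.3), matplotlib (3.10.9) and scipy (1.17.1) served for the rest.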

Additional observations from a re-analysis of the deposited data

Results flagged for a closer look

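The change with resistance differed between the lines, by a test of the difference itself, for ACADVL, ACSL1, PPARD and SLC27A1, with and without CE-26. It also did for ABCD2, given last. Of all genes tested 7.16% passed, and 13.4% without CE-26. ACSL1, PPARD and SLC27A1 were named because they were called in SUDHL16, and this test uses the same libraries again. ABCD2 was named for its call in SUDHL6, whose libraries the test uses again as well. Passing it is thus no separate support for any of these called genes. The joint fit shares a spread between the lines and can understate that of SUDHL16. ACADVL changed by 1.38 more in SUDHL16 than in SUDHL6 on the log2 scale (edgeR, adjusted p = 0.00794; 1.17 without CE-26), with 3 of 3 resistant libraries above the parental ones in SUDHL16 and overlapping libraries in SUDHL6. The difference was 2.58 for ACSL1 (adjusted p = 0.000215), and 2.60 without CE-26. It was 1.84 for PPARD (adjusted p = 0.00405), and 1.61 without CE-26. For SLC27A1 it was -2.01 (adjusted p = 0.00391), and -2.01 without CE-26. ABCD2 also passed, but its fitted difference of -9.89 (-8.54 without CE-26) is no measure of size, because it had 15, 15 and 6 counts in parental and 0, 0 and 0 in resistant SUDHL16 and depends on the prior count. Its parental levels there were 0.827, 5.17 and 0.372 CPM, the highest in CE-26. Kit and instrument differ between the lines and cannot be told apart from them.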

How the results depend on the processing

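In SUDHL6, CPT1A was the called gene of the 10 under each alternative except the single fit of all 12 libraries, which called 0 of the 10 and 0 of the other pathway genes, where 0.714% of all genes passed. Leaving out a library gave 1 to 2 called of the 10, where 7.98% to 8.67% of all genes passed. In SUDHL16, library totals gave 0 called of the 10, voom quality weights 2, and leaving out a library 0 to 2. In these fits 5.29%, 16.9% and 1.67% to 10.0% of all genes passed. The other pathway genes called in SUDHL16 numbered 7 with DESeq2, 12 in the single fit, 12 with voom and 1 to 6 with a library left out, where 11.3%, 14.6%, 16.9% and 1.67% to 10.0% of all genes passed. The genes of the 10 whose change differed between the lines numbered 2 with DESeq2, 2 with library totals, 4 with voom and 1 to 3 with a library left out. Of all genes, 14.4%, 6.10%, 13.9% and 4.09% to 13.4% passed in these fits. Without the filter the count was 1, where 1.83% of all genes passed, but the gene was CPT1A and not ACADVL.

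In SUDHL16 the sign of uncalled changes turned for CPT1A (-0.05) to 0.19 with library totals, 0.12 without the filter, 0.035 in the single fit, 0.46 with voom, 0.48 without CE-26 and 0.076 without CE-30. HADHA (0.07) turned to -0.017 with upper-quartile scaling, -0.015 with voom and -0.020 without CE-26, and ETFDH (0.07) to -0.012, -0.031 and -0.025. ACAA2 (0.17) turned to -0.0055 without CE-26. The median of all genes tested in SUDHL16 was -0.02 with TMM, -0.11 with upper-quartile scaling and 0.11 with library totals, relative to which those changes should be read. Without the filter it was -1.18 over 41969 genes, a different set. The cause of these turns was not tested. No sign turned in SUDHL6. No paired analysis was possible because the labels carry no replicate numbers. In CE-26 the 10 genes had 59 to 388 counts each. The biological coefficient of variation in SUDHL16 was 0.468 with it and 0.339 without it, against 0.0516 in SUDHL6.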
